A study of Mus musculus with 18 samples.

Results

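The genes described here are 10 members of the YAP-TEAD pathway, taken from the count table by symbol: the coactivators Yap1 and Wwtr1 (which encodes TAZ), the DNA-binding partner Tead1, the pathway regulators Lats2, Amotl2 and Ajuba, and the targets Ankrd1, Ctgf, Cyr61 and Axl. All 10 were found among 24421 genes, and all 10 were among the 13507 genes with enough counts to be tested. RNA came from 4T1, a mouse mammary carcinoma line of strain BALB/cfC3H and wild-type genotype, and from 4T1R1 and 4T1R2, populations that survived repeated selection with 17-DMAG, a geldanamycin derivative that blocks HSP90, a protein-folding chaperone. There were 6 groups, each population without treatment and with 17-DMAG, with 3 biological replicates a group and 18 libraries in all. The dose was 1.5 µM. The duration of exposure is recorded as 48 h with the samples and as 2 h in the description of the series, so the responses carry no time label here. 4T1R1 and 4T1R2 are 1 selected population each, so the replicates measure the spread within a population and not between selections.

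Counts per library ran from 23354461 to 55094630, with a median of 30747714. In the treated 4T1 group, replicates 1 and 2 lay closer to each other than any other pair of replicates. Their chi-square per gene was 1.10, where the 17 other pairs of replicates within a group gave 2.04 to 2.22. Replicates 1 and 2 of treated 4T1 were counted as 1 sample, which leaves n = 2 in that group, n = 3 in the others and 17 samples in all. The library names of all 4T1R1 samples belong to a different number series from those of 4T1 and 4T1R2. What that series marks is not stated, and a difference of 4T1R1 from the other populations cannot be told apart from it, whereas each response to 17-DMAG was measured within a single series. The summed level of 9 epithelial markers was 59913 to 63767 normalized counts in 4T1 and 42677 to 50586 in the resistant populations, and Krt5 was at 0 in 5 of the 6 groups. Krt8 and Krt18 gave most of that sum, and the part of this difference in the results was not tested. Not every marker was lower in the untreated resistant populations. Cdh1 averaged 11071 normalized counts in untreated 4T1, 11176 in 4T1R1 and 13394 in 4T1R2, and Krt14 averaged 142, 213 and 363. The means of Epcam, Krt8, Krt18, Krt19, Cldn4 and Esrp1 were lower in both. Summed markers of other cell types were low beside the epithelial sum in every sample. Fibroblast markers summed to 398 to 1037 normalized counts and leukocyte markers to 144 to 257. Endothelial markers summed to 4.29 to 17.5 and myoepithelial markers to 15.6 to 79.2. The fibroblast sum was 686 to 766 in untreated and 398 to 419 in treated 4T1. It was highest in untreated 4T1R2, where Col3a1, Lum, Pdgfrb and Thy1 were at 0. Col1a1, Col1a2 and Dcn averaged 8.50, 6.10 and 0.64 there, so Pdgfra gave nearly all of it. The heat shock gene Hspa1b, which is induced when HSP90 is inhibited, rose with 17-DMAG by a log2FC of 5.11 ± 0.05 in 4T1, 3.23 ± 0.05 in 4T1R1 and 2.29 ± 0.05 in 4T1R2 (adjusted P = 1.8e-45, 2.9e-38 and 6.2e-33, edgeR), although its reads are hard to tell from those of the near-identical Hspa1a.

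In the Hippo pathway, a chain of kinases ending in LATS1 and LATS2 phosphorylates YAP and TAZ, which are then held in the cytoplasm and degraded. Unphosphorylated YAP and TAZ enter the nucleus and switch on genes by binding TEAD factors, which recognize the core sequence GGAATG. Some of the genes they switch on, LATS2 and AMOTL2 among them, restrain YAP and TAZ in turn. The pathway is regulated by phosphorylation and location, so the RNA levels of Yap1 and Wwtr1 do not measure its activity.

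The promoters of Ankrd1, Cyr61, Amotl2, Ajuba and Lats2 are shown because their RNA rose together in 4T1 after 17-DMAG and each holds the TEAD core, and that of Axl because it holds the core as well and did not pass the test after 17-DMAG. Those of Yap1 and Wwtr1, which hold the core too and did not rise in 4T1, are left out. Each run reads 5′ to 3′ on the strand of the gene, from 250 bases before the RefSeq start to 20 bases after it (GRCm38.p6), with GGAATG or its reverse complement CATTCC in capitals.
Ankrd1, chr19:36119825-36120094, minus strand: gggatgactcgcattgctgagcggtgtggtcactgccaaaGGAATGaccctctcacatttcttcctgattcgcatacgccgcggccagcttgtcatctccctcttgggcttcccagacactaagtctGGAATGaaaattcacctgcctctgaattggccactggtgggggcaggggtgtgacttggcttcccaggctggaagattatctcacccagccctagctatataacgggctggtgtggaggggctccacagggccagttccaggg
Cyr61, chr3:145649966-145650235, minus strand: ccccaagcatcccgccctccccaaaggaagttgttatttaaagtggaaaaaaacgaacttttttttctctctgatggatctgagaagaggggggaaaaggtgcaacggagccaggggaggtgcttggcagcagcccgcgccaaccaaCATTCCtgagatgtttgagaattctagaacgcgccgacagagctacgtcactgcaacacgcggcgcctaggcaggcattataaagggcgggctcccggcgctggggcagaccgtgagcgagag
Amotl2, chr9:102717554-102717823, plus strand: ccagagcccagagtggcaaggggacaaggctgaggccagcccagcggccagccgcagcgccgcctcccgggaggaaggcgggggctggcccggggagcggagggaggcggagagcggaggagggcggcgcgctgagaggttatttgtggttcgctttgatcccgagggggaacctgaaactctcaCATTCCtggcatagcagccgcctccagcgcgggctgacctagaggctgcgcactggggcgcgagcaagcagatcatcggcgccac
Ajuba, chr14:54577642-54577911, minus strand: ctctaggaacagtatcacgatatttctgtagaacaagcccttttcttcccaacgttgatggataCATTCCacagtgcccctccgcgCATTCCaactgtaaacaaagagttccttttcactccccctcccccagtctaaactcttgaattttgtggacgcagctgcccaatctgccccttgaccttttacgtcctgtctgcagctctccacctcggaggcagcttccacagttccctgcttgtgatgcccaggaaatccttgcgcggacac
Lats2, chr14:57746104-57746373, minus strand: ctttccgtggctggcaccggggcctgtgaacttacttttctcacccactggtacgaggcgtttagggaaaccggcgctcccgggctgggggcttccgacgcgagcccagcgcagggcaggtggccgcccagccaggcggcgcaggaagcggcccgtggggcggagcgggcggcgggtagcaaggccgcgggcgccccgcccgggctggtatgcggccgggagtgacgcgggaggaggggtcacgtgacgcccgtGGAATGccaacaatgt
Axl, chr7:25788714-25788983, minus strand: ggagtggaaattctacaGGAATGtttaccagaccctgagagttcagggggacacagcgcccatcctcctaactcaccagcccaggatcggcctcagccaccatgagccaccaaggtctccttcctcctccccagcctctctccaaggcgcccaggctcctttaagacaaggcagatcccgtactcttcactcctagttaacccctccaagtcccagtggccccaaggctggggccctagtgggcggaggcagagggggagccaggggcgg

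GGAATG was searched on both strands in windows of 250 bases before to 50 bases after the start. It occurred in at least 1 window of all 8 members in the promoter table (Ankrd1, Cyr61, Amotl2, Ajuba, Lats2, Axl, Yap1 and Wwtr1), against 14.7% of 32851 windows of the same length, 16.6% of all genes in the table and 14.7% of the 10099 tested genes in it. Ctgf and Tead1 are named only. The core lies 210 and 123 bases before the RefSeq start of Ankrd1, 103 before that of Cyr61 and 65 before that of Amotl2. It lies 186 and 164 bases before the RefSeq start of Ajuba, and 233 before that of Axl. In Lats2 it lies 5 bases past the RefSeq start in 1 of its 2 windows, and the other window has none. Among 10 other genes of a list of common YAP-TAZ targets that are in the table, 2 hold the core (Crim1 and Ptpn14). The AP-1 sequence TGANTCA was in 0 of the 8 members and 7.81% of all windows. The heat shock element pair, in the order GAANNTTC, was in 1 member, Ankrd1, and 7.86% of all windows. The pair in the other order, with TTC first, was not searched, so these counts do not cover it. The Cyr61 promoter shown above holds that order as ttctagaa, and how often it occurs in all windows was not counted. Such a match describes letters and does not show that a factor was bound.

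In the GENCODE vM21 annotation of GRCm38, Yap1 lies at chr9:7931999-8004596 on the minus strand, Wwtr1 at chr3:57455649-57575910 (minus) and Tead1 at chr7:112679318-112906807 (plus). Lats2 lies at chr14:57689662-57758388 (minus), Amotl2 at chr9:102716672-102733418 (plus) and Ajuba at chr14:54567472-54577558 (minus). Ankrd1 lies at chr19:36111961-36120099 (minus), Ctgf at chr10:24595442-24598683 (plus), Cyr61 at chr3:145646976-145649981 (minus) and Axl at chr7:25757273-25788705 (minus). The promoter runs shown for Lats2, Amotl2 and Ankrd1 lie wholly inside these spans, because their RefSeq starts differ from the GENCODE starts. Counts were summed over the exons of each gene. The authors used UCSC annotation of mm10 for that, so the exons counted may differ from the GENCODE exons. Exon lengths and shared bases given here are those of GENCODE, where exons of Yap1 share 116 bases with the antisense gene Gm20416.

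Levels are given as normalized counts, which are counts scaled to a library of common size by TMM, and as RPKM where genes are compared with one another. In untreated 4T1, Axl stood highest per length at 213 ± 5.05 RPKM (SD, n = 3), followed by Cyr61 at 75.8 ± 3.98 and Ankrd1 at 74.0 ± 1.26, which did not differ beyond their spread. Ajuba (44.4 ± 1.50 RPKM), Wwtr1 (37.7 ± 1.94) and Ctgf (36.8 ± 2.21) came next, with the last pair within their spread. Tead1 followed at 21.6 ± 0.65 RPKM, Yap1 at 19.1 ± 0.32, Amotl2 at 13.5 ± 0.33 and Lats2 at 11.05 ± 0.21. All values for a sample stand in the plot of normalized counts.

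**Figure D1:**
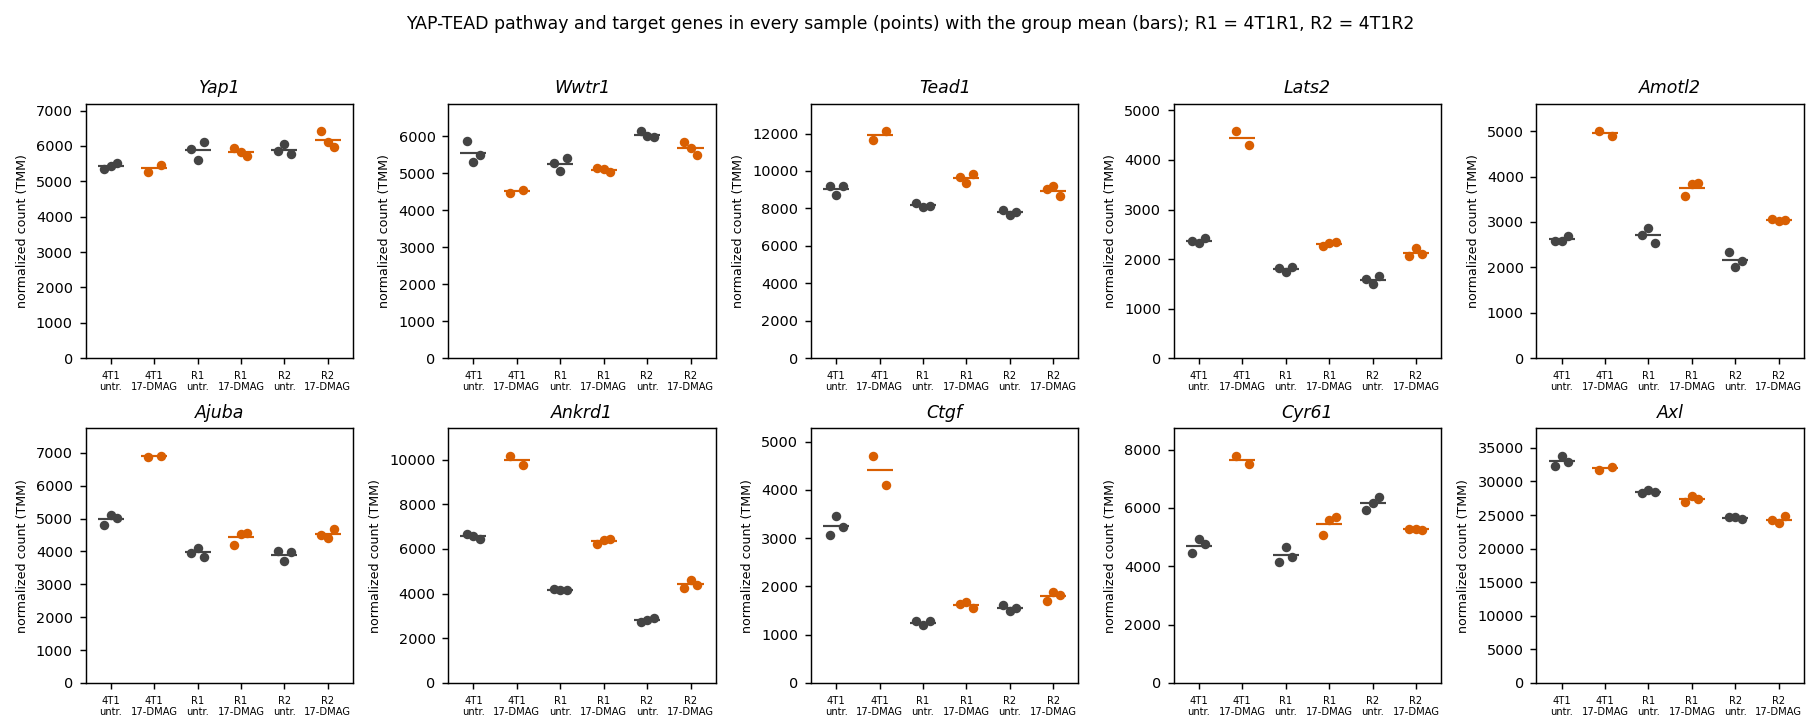
Normalized counts (vertical axis, starting at 0) of the 10 genes in the 6 groups; each point is 1 sample, each bar the group mean, grey untreated and orange 17-DMAG. Ctgf and Ankrd1 lie lower in both untreated resistant populations than in 4T1, Lats2 and Amotl2 rise with 17-DMAG most in 4T1, and Yap1 and Axl do not pass the test for a change with 17-DMAG.

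The coactivators differed little between untreated populations. Yap1 was at 5349, 5432 and 5531 normalized counts in 4T1, at 5914, 5601 and 6111 in 4T1R1 and at 5863, 6044 and 5768 in 4T1R2. All samples of both resistant populations were above those of 4T1, by a log2FC of 0.11 ± 0.03 in 4T1R1 (adjusted P = 0.0052, edgeR) and 0.12 ± 0.03 in 4T1R2 (adjusted P = 0.0043, edgeR). The call in 4T1R1 is lost without untreated 4T1R1 replicate 3 (log2FC 0.08, adjusted P = 0.057, edgeR). Wwtr1 was at 5855, 5293 and 5493 normalized counts in 4T1, at 5259.9, 5055 and 5417 in 4T1R1 and at 5995, 5978 and 6140.1 in 4T1R2. The 4T1R2 samples were all above those of 4T1 (log2FC 0.12 ± 0.03, adjusted P = 0.0028, edgeR), whereas those of 4T1R1 overlapped them (log2FC -0.08 ± 0.03, adjusted P = 0.048, edgeR), and that call is lost under most other settings, with adjusted P up to 0.38.

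Tead1 was lower in both untreated resistant populations. It was at 9171, 8718 and 9209 normalized counts in 4T1, at 8283, 8069.9 and 8141 in 4T1R1 and at 7938, 7656 and 7813 in 4T1R2. None of the resistant samples reached the lowest 4T1 sample, and log2FC was -0.15 ± 0.03 in 4T1R1 and -0.21 ± 0.03 in 4T1R2 (adjusted P = 7.9e-05 and 1.6e-07, edgeR). Per length, Tead1 made up 40.7 ± 1.16% of the summed RPKM of the 4 TEAD genes in untreated 4T1, 37.4 ± 1.74% in 4T1R1 and 40.0 ± 0.14% in 4T1R2. Of its paralogs, Tead3 was lower in both resistant populations (log2FC -0.40 ± 0.07 and -0.47 ± 0.07), Tead2 was lower in 4T1R2 (-0.34 ± 0.05) and Tead4 was higher in 4T1R1 (0.25 ± 0.05). Their adjusted P-values were 2.2e-06, 1.5e-07, 1.3e-06 and 4.0e-05 (edgeR).

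**Figure D2:**
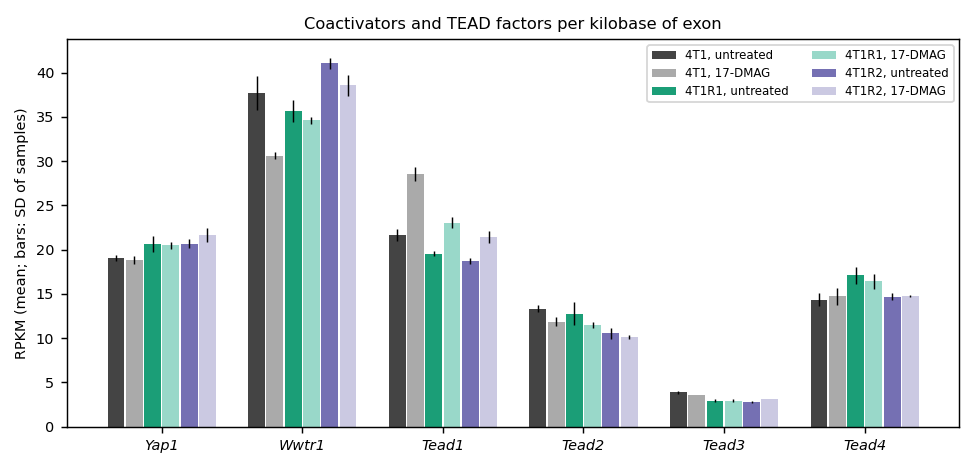
Mean RPKM (vertical axis, starting at 0) of the coactivators and the 4 TEAD factors in the 6 groups, with bars for the SD over samples (n = 3, and n = 2 for 17-DMAG-treated 4T1). Tead1 was at 28.5 RPKM in treated 4T1 and 21.6 in untreated 4T1, while Wwtr1 fell from 37.7 to 30.6.

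Among the regulators, Lats2 and Ajuba were lower in both resistant populations, and Amotl2 in 4T1R2. Lats2, the kinase that phosphorylates YAP and TAZ, was at 2364, 2330.3 and 2418 normalized counts in untreated 4T1, at 1814, 1735 and 1834 in 4T1R1 and at 1587, 1487 and 1656 in 4T1R2. The 3 groups did not overlap, and log2FC against 4T1 was -0.40 ± 0.04 in 4T1R1 and -0.59 ± 0.04 in 4T1R2 (adjusted P = 2.2e-10 and 1.1e-14, edgeR). Exons of Lats2 share 2955 bases with Gm49361 on the same strand, so its counts may include reads of that gene. Ajuba, a LIM-domain scaffold protein that binds LATS kinases, was at 4792, 5121 and 5025 normalized counts in 4T1, at 3961, 4106 and 3844 in 4T1R1 and at 4008, 3697 and 3979 in 4T1R2. The resistant samples were all below those of 4T1 (log2FC -0.33 ± 0.04 and -0.35 ± 0.04, adjusted P = 1.1e-09 and 1.9e-10, edgeR). Amotl2, a junction protein that binds YAP and holds it outside the nucleus, was at 2578, 2578 and 2688 normalized counts in 4T1, at 2706, 2873 and 2526 in 4T1R1 and at 2342, 2008 and 2129.6 in 4T1R2. It overlapped 4T1 in 4T1R1 (log2FC 0.05, 95% interval -0.04 to 0.14, adjusted P = 0.41, edgeR) and was below it in 4T1R2 (log2FC -0.27 ± 0.05, adjusted P = 4.5e-06, edgeR).

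The largest untreated differences among the 10 genes were in the targets Ctgf and Ankrd1. Ctgf, a secreted matricellular protein of the CCN family, was at 3062, 3449 and 3220.1 normalized counts in 4T1, at 1274, 1206 and 1273 in 4T1R1 and at 1614, 1491 and 1548 in 4T1R2. It was 2.59-fold lower in 4T1R1 (log2FC -1.37 ± 0.05, adjusted P = 1.9e-24, edgeR) and 2.09-fold lower in 4T1R2 (log2FC -1.06 ± 0.05, adjusted P = 9.2e-21, edgeR), with no overlap between the 3 groups. Exons of Ctgf share 665 bases with the antisense gene Gm15270, and the strand setting of the counting is not given in the sources used here. Ankrd1, a nuclear ankyrin-repeat protein, was at 6679, 6591 and 6458 normalized counts in 4T1, at 4223, 4161 and 4159.9 in 4T1R1 and at 2713, 2806 and 2924 in 4T1R2. The 3 groups were again separate, with 4T1R2 lowest (log2FC -0.65 ± 0.03 in 4T1R1 and -1.23 ± 0.04 in 4T1R2, adjusted P = 6.3e-20 and 1.2e-28, edgeR).

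Cyr61, another CCN protein, did not follow Ctgf. It was at 4440.3, 4927 and 4760.4 normalized counts in 4T1, at 4139, 4661 and 4314 in 4T1R1 and at 5941, 6179 and 6363 in 4T1R2. The 4T1R2 samples stood above all others (log2FC 0.39 ± 0.04 against 4T1, adjusted P = 1.1e-10, edgeR). The 4T1R1 samples overlapped those of 4T1 (log2FC -0.11 ± 0.04, adjusted P = 0.025, edgeR), and this call is lost when only the groups compared are fitted, with scaling by total counts, and without untreated 4T1 replicate 2 or 3 or untreated 4T1R1 replicate 1 or 3 (adjusted P = 0.073 to 0.20 over these 6 settings, edgeR). Axl, a receptor tyrosine kinase, was at 32296, 33847 and 32901 normalized counts in 4T1, at 28304, 28709 and 28376 in 4T1R1 and at 24657, 24701 and 24441 in 4T1R2. The groups did not overlap, and log2FC was -0.21 ± 0.02 in 4T1R1 and -0.42 ± 0.02 in 4T1R2 (adjusted P = 4.6e-10 and 1.1e-18, edgeR).

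Counted together, 8 of the 10 genes were lower and 1 was higher in untreated 4T1R1, where 52.7% of all genes tested were called in either direction, 27.5% lower and 25.2% higher. In untreated 4T1R2, 7 were lower and 3 higher, where 52.4% of all genes were called, 26.9% lower and 25.6% higher. The median log2FC of the 10 was -0.18 in 4T1R1 and -0.31 in 4T1R2, and 0.01 over all genes in both. Groups did not overlap for 6 lower and 1 higher gene in 4T1R1 (28.8% and 27.7% of all genes) and for 7 lower and 3 higher in 4T1R2 (29.2% and 28% of all genes). By at least 1.5-fold, 2 of the 10 changed in 4T1R1 (13.3% of all genes) and 3 in 4T1R2 (13.2%). The 2 comparisons share the untreated 4T1 samples, so they are not independent. Between the resistant populations, 3 of the 10 were higher in 4T1R2 and 4 lower, where 38.8% of all genes were called, 19.7% higher and 19% lower, with Cyr61 (log2FC 0.50 ± 0.04), Ctgf (0.31 ± 0.06) and Wwtr1 (0.20 ± 0.03) higher and Ankrd1 (-0.57 ± 0.04), Amotl2 (-0.32 ± 0.05), Axl (-0.21 ± 0.02) and Lats2 (-0.19 ± 0.05) lower. These populations did not overlap for 3 higher and 5 lower genes (23.2% and 22.9% of all genes), and 0 of the 10 differed by 1.5-fold with a call (6.31% of all genes).

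**Figure D3:**
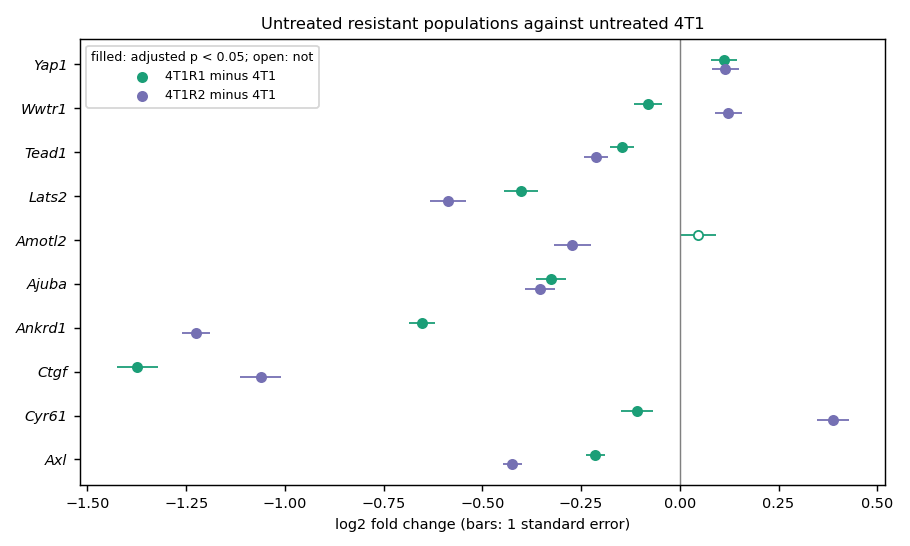
log2 fold change (horizontal axis) of untreated 4T1R1 and 4T1R2 against untreated 4T1 for the 10 genes; points are edgeR estimates, bars 1 standard error, filled points past an adjusted P of 0.05. Ctgf (-1.37 and -1.06) and Ankrd1 (-0.65 and -1.23) lie farthest to the left, and Cyr61 is to the right of 0 in 4T1R2 (0.39).

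After 17-DMAG, most of the targets and regulators rose in all 3 populations. Lats2 reached 4586 and 4303 normalized counts in treated 4T1, 2266, 2318 and 2335 in treated 4T1R1, and 2068, 2225 and 2103 in treated 4T1R2. Treated samples were above untreated ones in each population, by a log2FC of 0.91 ± 0.04 in 4T1, 0.36 ± 0.04 in 4T1R1 and 0.43 ± 0.04 in 4T1R2 (adjusted P = 3.4e-20, 2.1e-08 and 1.6e-09, edgeR). Amotl2 reached 5005 and 4895 normalized counts in treated 4T1, 3561, 3845 and 3866 in 4T1R1, and 3064, 3024 and 3053 in 4T1R2. It was again highest in 4T1 and rose in all 3 populations (log2FC 0.92 ± 0.05, 0.48 ± 0.04 and 0.49 ± 0.05, adjusted P = 2.3e-19, 4.6e-11 and 1.4e-10, edgeR). Ajuba reached 6868 and 6916 normalized counts in treated 4T1, 4198, 4544 and 4570.2 in 4T1R1, and 4505, 4408 and 4678 in 4T1R2. It rose by a log2FC of 0.47 ± 0.04, 0.16 ± 0.04 and 0.22 ± 0.04 (adjusted P = 1.2e-12, 0.0012 and 8.7e-05, edgeR).

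Ankrd1 rose by like amounts in the 3 populations. It reached 10176 and 9777 normalized counts in treated 4T1, 6230.0, 6415 and 6455 in 4T1R1, and 4241, 4615 and 4369.8 in 4T1R2. Treated 4T1R1 lay just below untreated 4T1, and treated 4T1R2 just above untreated 4T1R1. The log2FC was 0.60 ± 0.04, 0.61 ± 0.03 and 0.65 ± 0.04 (adjusted P = 1.5e-17, 6.7e-18 and 7.5e-18, edgeR). Set against the change in 4T1, the change differed by 0.00 in 4T1R1 (95% interval -0.09 to 0.10) and 0.05 in 4T1R2 (95% interval -0.05 to 0.15), and scaling by total counts makes the first 0.15 (adjusted P = 0.029, edgeR). Ctgf reached 4709 and 4097 normalized counts in treated 4T1, 1636, 1678 and 1549 in 4T1R1, and 1691, 1890.1 and 1827 in 4T1R2. All treated resistant samples remained below every untreated 4T1 sample, although Ctgf rose in each population (log2FC 0.44 ± 0.05, 0.37 ± 0.05 and 0.22 ± 0.05, adjusted P = 4.5e-09, 1.1e-06 and 0.0053, edgeR). The rise in 4T1R2 is not called without treated 4T1R2 replicate 2 (log2FC 0.18, adjusted P = 0.053, edgeR).

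Cyr61 changed in opposite directions. It rose to 7795 and 7509 normalized counts in treated 4T1 and to 5077, 5602 and 5674 in treated 4T1R1, and fell to 5278, 5285 and 5249.8 in treated 4T1R2. The log2FC was 0.70 ± 0.04, 0.32 ± 0.04 and -0.22 ± 0.04 in that order (adjusted P = 9.1e-17, 8.5e-08 and 0.00012, edgeR). Treated and untreated samples did not overlap in any population. Untreated 4T1R2 had the highest Cyr61 of the untreated groups, and treated 4T1R2 the lowest mean of the treated ones, although it overlapped treated 4T1R1.

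Of the factors themselves, Tead1 rose and Wwtr1 fell in 4T1. Tead1 reached 11675 and 12139 normalized counts in treated 4T1, 9655, 9349 and 9854 in 4T1R1, and 9027, 9175 and 8658 in 4T1R2. Its log2FC was 0.40 ± 0.03, 0.24 ± 0.03 and 0.20 ± 0.03 (adjusted P = 3.7e-13, 7.3e-08 and 9.2e-06, edgeR), and its share of TEAD RPKM reached 48.6 ± 1.90% in 4T1, 42.7 ± 0.40% in 4T1R1 and 43.3 ± 0.92% in 4T1R2. Wwtr1 was at 4465 and 4543 normalized counts in treated 4T1, below all untreated 4T1 samples (log2FC -0.30 ± 0.04, adjusted P = 3.8e-08, edgeR). In treated 4T1R1 (5130.4, 5115 and 5029) it overlapped the untreated samples, and in treated 4T1R2 (5846, 5670.2 and 5491) it lay below them without passing the test (log2FC -0.04 ± 0.03 and -0.09 ± 0.03, adjusted P = 0.40 and 0.085, edgeR). Yap1 was at 5274 and 5460.2 normalized counts in treated 4T1, 5943, 5838 and 5726 in 4T1R1, and 6425, 6109.9 and 5964 in 4T1R2, and overlapped the untreated samples each time. Its log2FC was -0.02, -0.01 and 0.07, with 95% intervals of -0.09 to 0.06, -0.08 to 0.06 and 0.00 to 0.13. Tead2 fell in 4T1 (log2FC -0.17 ± 0.06) and 4T1R1 (-0.15 ± 0.05). The call in 4T1 is lost without treated 4T1 replicate 3 (adjusted P = 0.22, edgeR) or untreated 4T1 replicate 1 (adjusted P = 0.078, edgeR). The call in 4T1R1 is lost with scaling by total counts and when only the groups compared are fitted (adjusted P = 0.092 and 0.055, edgeR). It is also lost without untreated 4T1R1 replicate 2 or treated 4T1R1 replicate 3 (adjusted P = 0.37 and 0.13, edgeR). The ratio of Yap1 to Wwtr1 in RPKM went from 0.507 ± 0.031 to 0.615 ± 0.008 in 4T1 with the fall of Wwtr1.

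Axl, the most abundant of the 10, did not pass the test in any population. It was at 31699.9 and 32178 normalized counts in treated 4T1, 27011, 27805 and 27372 in 4T1R1, and 24277, 23818 and 24855 in 4T1R2. The log2FC was -0.05, -0.06 and -0.02, with 95% intervals of -0.10 to 0.00, -0.10 to -0.01 and -0.06 to 0.03 (adjusted P = 0.17, 0.081 and 0.74, edgeR).

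With 17-DMAG, 7 of the 10 rose in 4T1 and 1 fell, where 36.4% of all genes tested were called, 18.4% higher and 17.9% lower. In 4T1R1, 7 rose and 0 fell (28.2% of all genes called, 13.9% higher and 14.3% lower). Before adjustment edgeR had 1 lower at the same threshold, Axl, which DESeq2 called after adjustment (adjusted P = 0.033). In 4T1R2, 6 rose and 1 fell (10.5% of all genes called, 6.18% higher and 4.35% lower). The median log2FC of the 10 was 0.46, 0.28 and 0.21, and 0.00, -0.01 and 0.00 over all genes. Treated and untreated samples did not overlap for 7 higher and 2 lower genes in 4T1 (28.9% and 27.6% of all genes), 7 higher and 1 lower in 4T1R1 (18.8% and 20.1%), and 6 higher and 2 lower in 4T1R2 (13.9% and 12.5%). Changes of at least 1.5-fold were found in 4 of the 10 in 4T1 (7.03% of all genes), 1 in 4T1R1 (1.93%) and 1 in 4T1R2 (0.666%). Scaling by total counts alone moves the median log2FC of all genes by -0.12 in 4T1 and leaves 21.6% of its calls higher instead of 50.7%. The same 7 genes are called higher in 4T1 with that scaling, and Yap1 (-0.14, adjusted P = 0.0082, edgeR) and Axl (-0.16, adjusted P = 9.7e-06, edgeR) are called lower.

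**Figure D4:**
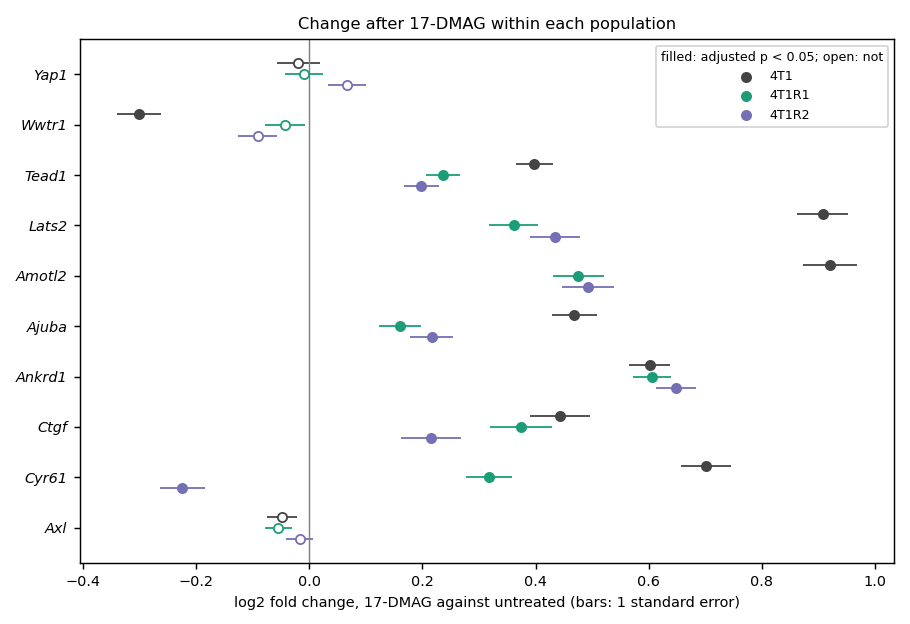
log2 fold change after 17-DMAG (horizontal axis) of the 10 genes within 4T1, 4T1R1 and 4T1R2; points are edgeR estimates, bars 1 standard error, filled points past an adjusted P of 0.05. Lats2 and Amotl2 lie at 0.91 and 0.92 in 4T1 and between 0.36 and 0.49 in the resistant populations, the 3 points of Ankrd1 lie together, and Cyr61 in 4T1R2 is left of 0 (-0.22).

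The responses were then compared between populations directly, as a difference of log2FC. In 4T1R1 the response was smaller than in 4T1 for Lats2 (-0.55 ± 0.06), Amotl2 (-0.44 ± 0.07), Cyr61 (-0.38 ± 0.06), Ajuba (-0.31 ± 0.06) and Tead1 (-0.16 ± 0.04). In 4T1R2 it was smaller for Cyr61 (-0.93 ± 0.06), Lats2 (-0.47 ± 0.06), Amotl2 (-0.43 ± 0.07), Ajuba (-0.25 ± 0.06), Ctgf (-0.23 ± 0.07) and Tead1 (-0.20 ± 0.04). The fall of Wwtr1 in 4T1 was larger than its change in 4T1R1 (difference 0.26 ± 0.05) and 4T1R2 (0.21 ± 0.05). Thus 5 of the 10 were called with a lower and 1 with a higher value in 4T1R1 (18.2% of all genes called, 9.08% lower and 9.16% higher), and 6 with a lower and 1 with a higher value in 4T1R2 (17.8% of all genes called, 8.16% lower and 9.62% higher). A difference of 1.5-fold with a call was found for 0 of the 10 in 4T1R1 (2.91% of all genes) and 1, Cyr61, in 4T1R2 (3.71%). The 2 sets of differences share the 4T1 samples, 2 of them treated. The calls of Tead1 are lost with scaling by total counts (-0.01 and -0.13, adjusted P = 0.90 and 0.070, edgeR), that of Tead1 in 4T1R1 also without treated 4T1 replicate 3 (-0.13, adjusted P = 0.11, edgeR), and that of Ctgf in 4T1R2 is lost with it and without any of 6 single samples, among them the merged treated 4T1 sample (-0.12, adjusted P = 0.38, edgeR).

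A list of 22 common YAP-TAZ targets, of which 6 are among the 10 genes, gave 18 tested genes, and Igfbp3, Foxf2, Ccdc80 and Rbms3 were below the filter. After 17-DMAG 12 rose and 1 fell in 4T1, 9 rose and 2 fell in 4T1R1, and 7 rose and 1 fell in 4T1R2, with median log2FC of 0.40, 0.17 and 0.14. Over all genes tested, 18.4%, 13.9% and 6.18% were called higher and 17.9%, 14.3% and 4.35% lower. Without the 6, the 12 others gave 7 higher and 1 lower in 4T1, 4 higher and 2 lower in 4T1R1, and 3 higher with 9 not called in 4T1R2. Gadd45a, a stress-induced growth arrest gene, stood at 93.9 ± 9.55 normalized counts (n = 3) in untreated 4T1 and 256 ± 25.6 (n = 2) after 17-DMAG, a log2FC of 1.44 ± 0.13 (adjusted P = 8.2e-12, edgeR). It was at 332 ± 19.96 in untreated 4T1R1 and 248 ± 20.8 in untreated 4T1R2 (n = 3 each), and its log2FC after 17-DMAG was -0.02 ± 0.10 and 0.04 ± 0.11 there. F3, the coagulation initiator tissue factor, rose in 4T1 (log2FC 0.85 ± 0.12), and Crim1, a membrane protein that binds bone morphogenetic proteins, rose in all 3 populations (0.71 ± 0.04, 0.29 ± 0.04 and 0.39 ± 0.04). Nuak2, a kinase of the AMPK family, rose by 0.43 ± 0.08, 0.39 ± 0.07 and 0.37 ± 0.08.

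**Figure D5:**
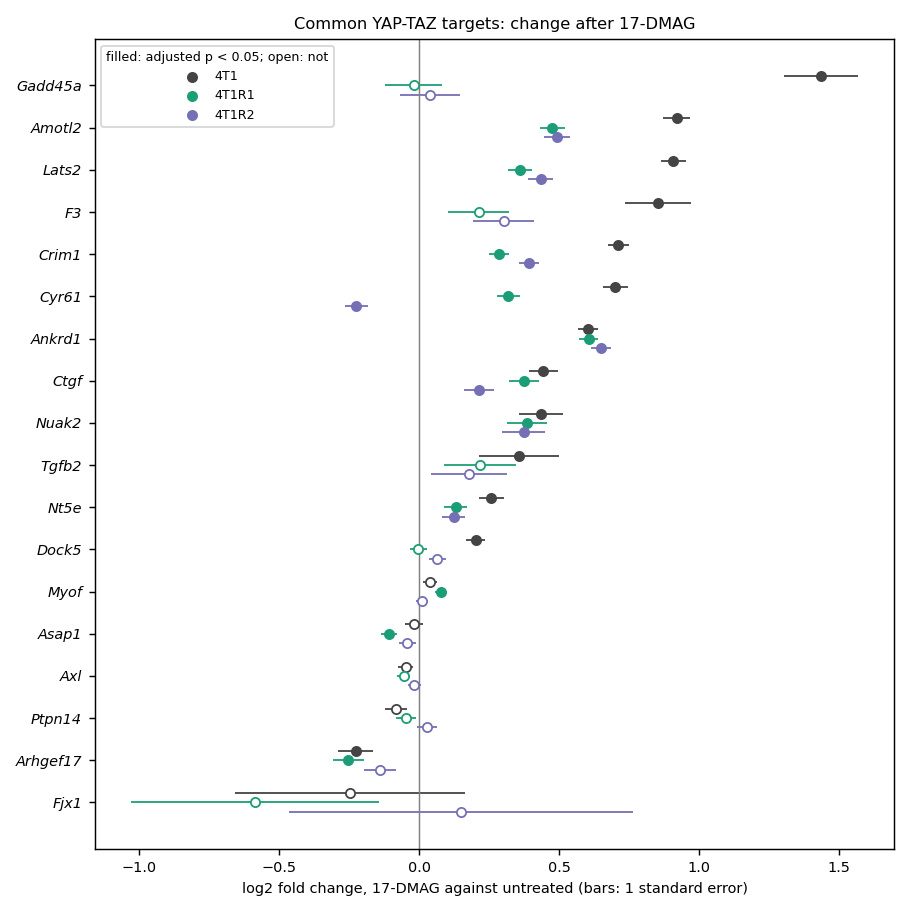
log2 fold change after 17-DMAG (horizontal axis) of the 18 tested genes of the common YAP-TAZ target list in the 3 populations, ordered by the value in 4T1; points are edgeR estimates, bars 1 standard error, filled points past an adjusted P of 0.05. Gadd45a lies at 1.44 in 4T1 and near 0 in both resistant populations, and Nuak2 and Ankrd1 have their 3 points close together.

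Before treatment, 10 of the 18 targets were lower and 2 higher in 4T1R1 than in 4T1, and 11 lower and 4 higher in 4T1R2, with median log2FC of -0.16 and -0.35. The shares over all genes tested were 27.5% and 25.2% in the former population, and 26.9% and 25.6% in the latter. Without the 6, the counts were 5 lower and 2 higher, and 6 lower and 3 higher, of 12. Asap1, an Arf GTPase-activating protein, was lower in both (-0.25 ± 0.03 and -0.83 ± 0.03), and Nuak2 (-0.67 ± 0.08), Crim1 (-0.53 ± 0.04) and Ptpn14 (-0.47 ± 0.04), a phosphatase that binds YAP, were lower in 4T1R2. Gadd45a was higher in both (1.82 ± 0.12 and 1.40 ± 0.12), and its exons share 337 bases with the antisense gene E230016M11Rik. In the CCN family of 6, Nov stood at 20.6 ± 3.91, 203 ± 30.2 and 86.5 ± 15.2 normalized counts (n = 3 each) in untreated 4T1, 4T1R1 and 4T1R2, a log2FC of 3.29 ± 0.20 in 4T1R1, and Wisp1 was higher in 4T1R1 (0.27 ± 0.06) and lower in 4T1R2 (-0.91 ± 0.06).

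A list of 15 Hippo kinases and adaptors includes Lats2 of the 10 genes. Of these 15, 7 were lower and 3 higher in untreated 4T1R1, and 8 lower with 7 not called in 4T1R2 (52.7% and 52.4% of all genes called). Mob1b, an activator of LATS kinases, was lower in both (-0.56 ± 0.07 and -0.44 ± 0.07), as were the kinase Stk3 (-0.23 ± 0.06 and -0.41 ± 0.06) and the scaffold Nf2 (-0.17 ± 0.04 and -0.39 ± 0.04). After 17-DMAG 5 rose and 3 fell in 4T1, and 7 rose and 1 fell in 4T1R1 (36.4% and 28.2% of all genes called). In 4T1R2, 2 rose, Lats2 and Stk4, with 13 not called (10.5% of all genes called). Stk4, the upstream kinase MST1, rose in 4T1 (0.51 ± 0.04) and less in 4T1R1 (0.16 ± 0.04) and 4T1R2 (0.17 ± 0.04), and Wwc1, which encodes the scaffold KIBRA, rose in 4T1 (0.33 ± 0.04). Lats1 had a log2FC of -0.03 ± 0.04 in 4T1, where Lats2 had 0.91 ± 0.04.

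The 15 tested junction, polarity and actin-linked regulators include Amotl2 and Ajuba of the 10 genes, which rose in all 3 populations. Of these 15, 7 rose and 2 fell in 4T1, 6 rose and 3 fell in 4T1R1, and 4 rose and 1 fell in 4T1R2 (36.4%, 28.2% and 10.5% of all genes called). Besides Amotl2, its paralog Amot rose in 4T1 (0.54 ± 0.08) and 4T1R1 (0.40 ± 0.07), while Amotl1 had -0.05 ± 0.03 in 4T1 (adjusted P = 0.22, edgeR). The polarity genes Pard3 (0.50 ± 0.04) and Llgl1 (-0.41 ± 0.06) went in opposite directions in 4T1. Untreated, 6 of the 15 were lower and 4 higher in 4T1R1, and 10 lower with 5 not called in 4T1R2 (52.7% and 52.4% of all genes called). The 7 tested TEAD factors, coactivators and Vestigial-like cofactors include Yap1, Wwtr1 and Tead1. Of these 7, 1 rose and 2 fell in 4T1, 1 rose and 2 fell in 4T1R1, and 1 rose with 6 not called in 4T1R2 (36.4%, 28.2% and 10.5% of all genes called). The gene that rose was Tead1 each time, and Vgll1, Vgll2 and Vgll3 were below the filter.

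A list of 21 cytoskeletal targets of SRF and its MRTF coactivators, a pathway that shares several targets with YAP, served as a neighbouring set. Of its 19 tested genes, 8 rose and 3 fell in 4T1, 1 rose and 3 fell in 4T1R1, and 4 rose with 15 not called in 4T1R2, with median log2FC of 0.07, -0.01 and 0.07, and 36.4%, 28.2% and 10.5% of all genes were called. Untreated, 9 were higher and 4 lower in 4T1R1 (52.7% of all genes called), and 6 higher and 6 lower in 4T1R2 (52.4%). Zyx, a focal adhesion protein, rose in 4T1 (0.46 ± 0.04) and fell in 4T1R1 (-0.10 ± 0.04). The MRTF gene Mkl1 fell in both (-0.21 ± 0.06 and -0.22 ± 0.05). Cnn3 (-0.82 ± 0.03 and -0.53 ± 0.03) and Tpm4 (-0.35 ± 0.03 and -0.56 ± 0.03), both actin-binding, were lower in both untreated resistant populations. Zyx was higher in untreated 4T1R1 (0.26 ± 0.04). Srf (0.28 ± 0.05) and Tpm2 (1.66 ± 0.22) were higher in untreated 4T1R2, with Tpm2 at no more than 146.5 normalized counts in any sample.

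The genes most like 3 of the targets across the 6 groups were sought among 10630 genes, by the root mean square difference of their group means on the log2 scale after each gene was centred. Nearest to Ctgf were Lss (0.124), Shank1 (0.128) and Epha4 (0.134). Nearest to Cyr61 were Zfand5 (0.0766), Usp2 (0.0791) and Pex5 (0.105). Nearest to Axl were Fanca (0.0130), Tmem63a (0.0202) and Nacc1 (0.0214). Lss went from 3034 to 3557 normalized counts with 17-DMAG in 4T1 and stood at 1259 and 1632 in untreated 4T1R1 and 4T1R2. Zfand5, picked for its likeness to Cyr61, went from 1958 to 3239 in 4T1, from 1862 to 2169 in 4T1R1 and from 2242 to 2127 in 4T1R2. The means of Usp2 (97.3 to 99.8) and Pex5 (1316 to 1340) did not fall in 4T1R2. Shank1 and Usp2 reached the minimum of 100 normalized counts only in treated 4T1 (means of 121 and 141). The mean of Shank1 was 26.1 in untreated and 25.8 in treated 4T1R1, where that of Ctgf went from 1251 to 1621. Counts as low as those of Shank1 lie near the constant added before log2 was taken, which narrows differences between groups. These are descriptions over 6 group means that share libraries, and carry no test.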

How the data were processed

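The 10 genes and the gene lists were chosen with earlier results of these data known. After ribosomal RNA depletion, dUTP-stranded libraries were made. Per the labels and the submitters' processing notes, the authors used bcl2fastq 2.20, aligned reads with STAR to mm10 (GRCm38) and made counts per gene with featureCounts (Subread 1.6.2). The deposited counts are whole numbers without normalization. The STAR version, the strand setting and the handling of multimapping reads are not given in the sources used here. Of counts from 1 to 12, 65.6 to 70.8% were even, and the ribosomal precursor Rn45s took 9.54 to 15.6% of a library.

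Counts were analysed in R 4.3.3 with edgeR 4.0.16: filterByExpr, TMM scaling, group means of all 6 groups in 1 fit of 17 samples, the quasi-likelihood test, and Benjamini-Hochberg adjustment over 13507 genes with a threshold of 0.05. The counts of replicates 1 and 2 of 17-DMAG-treated 4T1 were averaged. Values after ± are standard errors of log2FC or SDs of levels, and intervals are 1.96 standard errors. P-values measure the spread between replicate cultures. Normalized counts are counts at the geometric mean of the TMM-scaled library sizes (30778413). RPKM used the exon length of GENCODE vM21, which may differ from that of the annotation used for counting. Of each list, at most 4 genes a comparison were eligible to be named, those with the largest called change that reached 100 normalized counts in a group; Tead2, Tead3, Tead4, Amotl1, Lats1 and Hspa1b were eligible in any case, and the likeness of Ctgf, Cyr61 and Axl used log2(CPM + 1). Promoters are from RefSeq. Alternatives were RLE and total-count scaling, 2 other filters, fits limited to the compared groups, DESeq2 1.42.0, 18 separate libraries with and without the replicate number as a block, counts without Rn45s, and each sample left out. The code was tested on simulated data. Plots used Python 3.11.15 and matplotlib 3.10.9.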

Additional observations from a re-analysis of the deposited data

Results flagged for a closer look

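The response to 17-DMAG differed between a resistant population and 4T1 for most of the 10 genes, by edgeR's test of the difference itself. In 4T1R1 the difference was called lower for 5 and higher for 1, where 18.2% of all genes tested were called. In 4T1R2 it was called lower for 6 and higher for 1, where 17.8% of all genes were called. The difference of log2FC in 4T1R1 and in 4T1R2 was -0.38 and -0.93 for Cyr61, -0.55 and -0.47 for Lats2, -0.44 and -0.43 for Amotl2, -0.31 and -0.25 for Ajuba, -0.16 and -0.20 for Tead1, and 0.26 and 0.21 for Wwtr1. For Ctgf it was called in 4T1R2 (-0.23). Adjusted P-values (edgeR) ran from 7.0e-16 for Cyr61 in 4T1R2 to 0.028 for Ctgf. For Cyr61 in 4T1R2 the sign itself turned, with all treated samples above the untreated ones in 4T1 and all below them in 4T1R2.

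The same test called further genes of the lists. In 4T1R1 and in 4T1R2 the difference was -1.46 and -1.40 for Gadd45a, -0.64 and -0.55 for F3, -0.43 and -0.32 for Crim1, -0.56 and -0.47 for Zyx, -0.37 and -0.40 for Pard3, -0.35 and -0.35 for Stk4, and -0.32 and -0.25 for Wwc1, and it was 0.17 for Lats1 in 4T1R1. The call of F3 in 4T1R2 is lost without untreated 4T1 replicate 2 (-0.40, adjusted P = 0.063, edgeR) or the merged treated 4T1 sample (-0.50, adjusted P = 0.079, edgeR), and that of Lats1 without treated 4T1 replicate 3 (0.13, adjusted P = 0.18, edgeR) or treated 4T1R1 replicate 3 (0.15, adjusted P = 0.055, edgeR). All these differences share the 4T1 samples. Groups held 2 or 3 samples, too few for a check of single outlying samples.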

How the results depend on the processing

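The 10 genes all held at least 1206 normalized counts in every sample, and groups hold 2 or 3 samples. Over the 8 comparisons, 692 values of the 10 genes under the alternatives kept their direction and their side of the threshold, 12 were no longer called, 8 became called and 8 changed sign. With single samples left out, 1315 values were kept, 27 were no longer called and 18 changed sign. Each value that changed sign was below 0.1 in size in the reported fit, and the cause was not tested unless stated.

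Scaling by total counts moves the median of all genes by -0.12 in the response of 4T1, 0.15 in the difference of 4T1R1 from it and 0.07 in that of 4T1R2. This shift moves the counts of members: 3 lower in the response of 4T1 (1 reported), 2 lower in 4T1R2 (1), 4 with a higher difference in 4T1R1 (1) and 2 in 4T1R2 (1), with 3955 genes called for the difference in 4T1R1 (2464). The share of higher calls goes from 50.7 to 21.6% in 4T1, from 49.2 to 64.2% in 4T1R1, from 58.7 to 24.2% in 4T1R2, from 50.2 to 89.4% for the difference in 4T1R1 and from 54.1 to 76.8% for that in 4T1R2. It turns the sign of Yap1 between untreated 4T1R2 and 4T1R1 (-0.0043) and in the response of 4T1R1 (0.024), of Ctgf (0.080) and Axl (0.142) in the difference in 4T1R1, and of Gadd45a in the responses of 4T1R1 (0.014) and 4T1R2 (-0.0079). DESeq2 called 1 member lower in the response of 4T1R1 (0), and fitting only the groups compared gave 2 lower in 4T1R2 (1). Without a filter Yap1 was -0.0035 between untreated 4T1R2 and 4T1R1, and with at least 10 counts in every library Axl was 0.0053 in the difference in 4T1R1.

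Replicate numbers do not pair the samples: deviations of samples with the same number correlated from -0.051 to 0.048 over 45 pairs, 0 of them over 0.1. With the replicate block on 18 separate libraries, Ankrd1 was -0.0027 in the difference in 4T1R1 (-0.0029 without the block), the only reported result with another sign or call under the block, and no count of calls moved by over 1.5 times.

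With single samples left out, Yap1 ran from -0.030 to 0.032 between untreated 4T1R2 and 4T1R1, from -0.048 to 0.0092 in the response of 4T1, from -0.043 to 0.019 in that of 4T1R1 and from -0.023 to 0.039 in the difference in 4T1R1 (-0.020 without the merged treated 4T1 sample). In that difference Ctgf ran from -0.161 to 0.033, Axl from -0.026 to 0.0083 and Ankrd1 from -0.021 to 0.030, the last without the merged treated 4T1 sample (0.020 at most otherwise). Ajuba ran from -0.049 to 0.0089 between untreated 4T1R2 and 4T1R1, Lats1 from -0.078, without the same sample (-0.040 at least otherwise), to 0.010 in the response of 4T1, and Gadd45a from -0.053 to 0.031 and from -0.051 to 0.097 in the responses of 4T1R1 and 4T1R2. Members higher in untreated 4T1R1 ran from 0, without its replicate 3, to 1. Genes called ran from 929, without treated 4T1R2 replicate 1, to 1624 in the response of 4T1R2, and, with the low value without treated 4T1 replicate 3, from 1585 to 2529 and from 1565 to 2647 in the differences in 4T1R1 and 4T1R2.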
